A study of Mus musculus with 8 samples.

Results

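Kinesins and dyneins are the motor proteins that walk along microtubules. Most kinesins move toward the growing ends, and cytoplasmic dynein moves the other way. In a dividing neural precursor one set of kinesins builds and slides the mitotic spindle and then completes cytokinesis, whereas in a neuron another set carries vesicles, mitochondria and other cargo along the axon. Cytoplasmic dynein carries cargo back toward the cell body and also positions the nucleus and the spindle, and a separate kinesin and dynein pair serves the cilium.

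The genes described here are those whose symbol names a kinesin heavy chain (Kif or Kifc), a kinesin light chain (Klc) or a chain of cytoplasmic dynein 1 or 2 (Dync and Dynl). The rule found 60 of the 23997 symbols in each library. Of these, 53 averaged 1 FPKM or more over all 6 libraries and were tested together with every other gene above that level, 12537 in all. FPKM scales the sequenced fragments of a gene to its transcript length and to the library's mapped fragments, so levels of different genes are compared per length.

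The cells were neural stem/precursor cells in adherent primary culture from the telencephalon of ICR mouse embryos at E11.5 (the stage label says E11), grown with 10 ng/mL basic fibroblast growth factor. The control group and the group transduced with Nfia, a transcription factor gene of the nuclear factor I family, held 3 poly(A) RNA libraries each, taken 3 days after transduction. The labels used here name no vector, no promoter driving Nfia and no treatment of the control cells. Whether each library is a culture of its own is not stated either, and the spread that the p-values rest on may therefore be technical.

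Nfia itself was 19.8, 23.9 and 22.2 FPKM in the control libraries and 69.0, 85.6 and 103.5 FPKM in the Nfia libraries, so the labels and the introduced gene go together. Library totals were 474010 to 511700 FPKM. Relative depth was estimated from the most frequent ratio of low values between control 1 and each library. Depth was 0.760 to 1.11 of that of control 1 (0.760 in Nfia 3). No file gives counts, so absolute depth is unknown. Precursor markers were abundant in sum: 9 listed genes including Nes, Sox2 and Vim summed to between 5425 and 6504 FPKM in every library. Most of that sum was Fabp7 (2479 to 3608 FPKM) and Vim (1799 to 2541 FPKM). At the threshold used below, 4 of the 9 were higher with Nfia and 2 (Pax6 and Hes5) lower, beside 16.1% and 15.1% of all genes. Markers of cell types from outside the neural lineage were scarce. The sums over 8 microglia, 7 endothelial and 7 erythroid markers were at most 4.63, 3.77 and 1.5 FPKM in any library, with Hbb-y at 0 in all, and 8 markers of pericytes and meningeal fibroblasts summed to 9.48 FPKM in control 1 and 7.59 FPKM in Nfia 1 and to between 17.5 and 20 FPKM in the other libraries. In 7 oligodendrocyte lineage markers the sum was 363 to 410 FPKM in control and 1054 to 1115 FPKM with Nfia, a rise carried by Olig1 and Olig2, while Pdgfra and Mbp were lower and the median log2 difference of the list was -0.31. In 7 astrocyte markers the sum was 192 to 214 and 255 to 264 FPKM, with Aldoc higher, Gfap and Aldh1l1 lower and a median log2 difference of -0.05 over the 5 tested.

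The motor genes moved in both directions with Nfia. At an adjusted p under 0.05 (limma on log2(FPKM + 1), adjusted over all 12537 genes), 12 of the 53 tested were higher and 16 lower. Among all genes tested, 16.1% were higher and 15.1% lower, 31.3% in either direction. The median log2 difference of the motor genes, Nfia minus control, was -0.04, beside 0.01 over all genes. All 53 log2 differences lay between -0.67 and 0.53, and 99 other genes lay beyond the range plotted here. The Nfia and control libraries did not overlap in 18 motor genes that were higher and 18 that were lower, against 47.7% of all genes tested in either direction. Leaving out control 1 or Nfia 2 gave 5 higher motor genes, leaving out Nfia 3 gave 6 and leaving out control 3 gave 7. Leaving out Nfia 2 gave 9 lower ones.

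**Figure D1:**
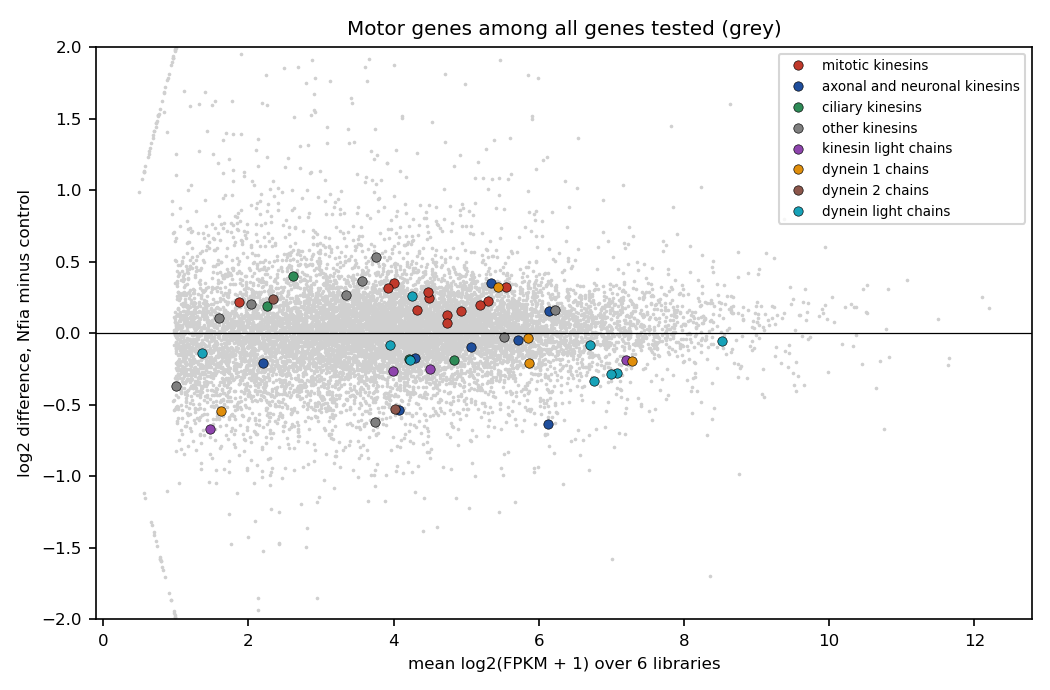
Log2 difference (Nfia minus control) against mean log2(FPKM + 1) over 6 libraries for the 53 motor genes tested (coloured by role) and all other genes tested (grey); 99 grey genes lie beyond the vertical range. The motor genes stay between -0.67 and 0.53, with the mitotic kinesins (red) all above 0 and most dynein light chains (cyan) below it.

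The 12 kinesins of mitosis and cytokinesis all had a higher mean with Nfia, by 5% to 29% in FPKM, and 4 of them passed the test: Kif22, Kif15, Kif4 and Kif11. None was lower. The 4 called of 12, or 33.3%, stand beside 16.1% of all genes called higher and 31.3% called in either direction. The median log2 difference of the 12 was 0.22.

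Kif22, a chromokinesin that pushes chromosome arms toward the spindle equator, was 37.9, 44.4 and 40.2 FPKM in the control libraries and 50.3, 51.2 and 51.9 FPKM in the Nfia libraries. The lowest Nfia library was above the highest control library (log2 difference 0.32, SE 0.06, adjusted p = 0.0094). Kif15, a spindle motor that works beside Kif11 to keep the poles apart, was 19.3, 20.1 and 19.5 FPKM in control and 22.1, 24.7 and 23.6 FPKM with Nfia (log2 difference 0.24, SE 0.05, adjusted p = 0.0134). Its control libraries lay within 1 FPKM of each other, and every Nfia library was above them.

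Kif4, a chromokinesin that also acts at the central spindle, was 17.6, 19.6 and 20 FPKM in control and 21.9, 24.8 and 24.0 FPKM with Nfia (log2 difference 0.29, SE 0.07, adjusted p = 0.0188). Leaving out control 1, Nfia 2 or Nfia 3 ended this call, with adjusted p of 0.0532, 0.0721 and 0.0623. Kif11, the motor that slides the spindle poles apart, was 35.8, 33.6 and 37.1 FPKM in control and 38.2, 44.8 and 42.0 FPKM with Nfia. The groups did not overlap, but the log2 difference of 0.22 passed narrowly (SE 0.07, adjusted p = 0.0471), and leaving out any library but Nfia 1 ended the call (adjusted p = 0.0717 to 0.135), as did no filter, upper-quartile scaling, quantile normalization, no variance trend and the replicate block (0.0645 to 0.0889).

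Kif20a, which brings regulators of cytokinesis to the central spindle, did not pass the test. It was 33.2, 34.1 and 32.1 FPKM in control and 35.1, 41.0 and 38.2 FPKM with Nfia, groups that did not overlap (log2 difference 0.19, SE 0.06, adjusted p = 0.055). It was called higher in 5 alternatives, with a filter at 5 FPKM, a robust trend, library weights, the replicate block and without Nfia 1 (adjusted p = 0.0187 to 0.0489). Kif23, the motor of the centralspindlin complex with Racgap1, was 23.7, 25.1 and 24.4 FPKM in control and 24.2, 28.9 and 27.5 FPKM with Nfia. Nfia 1 lay inside the control range (log2 difference 0.13, adjusted p = 0.196, and 0.0368 without Nfia 1). Of the others, Kif18b and Kif20b had log2 differences of 0.35 and 0.32 with groups that did not overlap (adjusted p = 0.0624 and 0.0584). Kif18b was called higher with a robust trend, library weights, the replicate block and without Nfia 1 (adjusted p = 0.013 to 0.0379). In those alternatives, with a pseudocount of 0.1 and with a filter at 5 FPKM, Kif20b was called higher (adjusted p = 0.0261 to 0.0498). Kif18b is a motor that shortens astral microtubules, and Kif20b acts late in cytokinesis. The microtubule depolymerase gene Kif2c, the chromosome alignment motor gene Kif18a, Kif14 and the minus-end motor gene Kifc1 had overlapping groups and log2 differences of 0.07 to 0.22. Of these, Kif2c was called higher with library weights (adjusted p = 0.046). Kifc1 and Kif4 have near-identical copies among the listed symbols (Kifc5b and Kif4-ps), and their values are uncertain where reads were split between copies.

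The libraries of a group were not alike here. In all 12 mitotic kinesins Nfia 1 was the lowest of the Nfia libraries, whereas it was the lowest in 34.9% of all genes tested. The 12 genes summed to 261, 279 and 277 FPKM in control and to 295, 337 and 325 FPKM in the Nfia libraries. Control 1 thus had the lowest control sum, although not the lowest value in every gene (Kif11 was lowest in control 2). Without Nfia 1, 8 of the 12 were called higher, and 2 were called without control 1, Nfia 2 or Nfia 3. The direction was the same for all 12 in every one of these fits and under each scaling tried.

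Some partners of these motors rose too. Of 16 listed genes of the spindle and midzone, 7 were higher and 0 lower, where 16.1% of all genes were higher, with a median log2 difference of 0.27. Birc5, of the chromosomal passenger complex, rose from 67.2 ± 4.84 to 82.9 ± 3.09 FPKM (SD, n = 3 per group) and was called with any 1 library left out. Anln, a scaffold of the cleavage furrow, rose by a log2 difference of 0.31, the spindle protein gene Tacc3 by 0.37 and Racgap1 by 0.27. The count of higher genes was 1 without control 1, 2 without control 3, Nfia 2 or Nfia 3, and 10 without Nfia 1. Of 12 markers of dividing cells, 8 were higher and 0 lower, against the same 16.1%. They summed to 918 to 957 FPKM in control and 1082 to 1139 FPKM with Nfia, with Ccna2 and Cdk1 at log2 differences of 0.29 and 0.32. That count was 2 without control 1, control 3 or Nfia 2, 3 without Nfia 3 and 4 without control 2. The part of these markers in the higher values of the mitotic kinesins was not tested. In bulk RNA, more or fewer cells of a type and more or less RNA per cell cannot be told apart.

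The stretch of DNA upstream of a gene's start was read for the called mitotic and axonal kinesins with the smallest adjusted p that the RefSeq promoter table (build GRCm38.p6) holds. It had entries for 46 of the 60 motor genes. Shown are 2 genes of each role. The table had no entry for Kif5a or Kif21b. Each sequence below is the 250 bases that end at the base before the annotated start, 5′ to 3′ on the gene's strand, and capitals mark matches on either strand to 3 motifs. These are the cell cycle homology region TTTGAA, known from promoters of mitotic genes, the CCAAT box (ATTGG on the other strand) and the nuclear factor I core TTGGC. The CCAAT box and that core share letters where ATTGGC or its reverse occurs.
Kif22 (chr7:127042421-127042670, minus strand): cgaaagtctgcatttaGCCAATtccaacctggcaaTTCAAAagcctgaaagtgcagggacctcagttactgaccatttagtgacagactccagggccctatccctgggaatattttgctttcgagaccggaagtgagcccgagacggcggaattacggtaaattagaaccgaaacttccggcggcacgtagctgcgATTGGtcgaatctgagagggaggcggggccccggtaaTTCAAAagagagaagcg
Kif15 (chr9:122950831-122951080, plus strand): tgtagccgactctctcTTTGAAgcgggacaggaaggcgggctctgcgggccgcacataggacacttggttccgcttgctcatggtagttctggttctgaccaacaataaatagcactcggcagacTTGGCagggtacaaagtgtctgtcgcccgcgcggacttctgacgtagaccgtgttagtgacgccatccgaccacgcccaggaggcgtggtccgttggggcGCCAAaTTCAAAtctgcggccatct
Kif5c (chr2:49619036-49619285, plus strand): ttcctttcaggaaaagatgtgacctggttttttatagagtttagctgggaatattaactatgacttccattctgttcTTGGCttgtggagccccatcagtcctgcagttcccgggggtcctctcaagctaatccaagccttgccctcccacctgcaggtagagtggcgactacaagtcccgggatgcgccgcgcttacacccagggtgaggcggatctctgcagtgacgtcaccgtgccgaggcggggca
Kif21a (chr15:91049952-91050201, minus strand): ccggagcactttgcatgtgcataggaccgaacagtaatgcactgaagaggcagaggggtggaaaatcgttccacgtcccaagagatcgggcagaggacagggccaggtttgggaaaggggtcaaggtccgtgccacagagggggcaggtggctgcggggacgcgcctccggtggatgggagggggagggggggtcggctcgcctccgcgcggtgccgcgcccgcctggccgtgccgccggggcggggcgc
The starts used for Kif22 and Kif21a lie inside the annotated gene spans, so they are not the outermost ones.
The final 60 bases before the start of Kif11 are added for comparison, a choice made after the matches were seen.
Kif11 (chr19:37376322-37376381, plus strand): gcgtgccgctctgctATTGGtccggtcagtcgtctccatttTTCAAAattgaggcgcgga

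In Kif22, Kif15 and Kif11, all called higher, TTTGAA lay on the reverse strand with its first base 17, 19 and 19 bases before the start. A match beginning within the last 20 bases was held by 3 of 11 promoters of mitotic kinesins, by 0 of 8 promoters of 6 axonal and neuronal kinesins by 1 of 9 of the other kinesins (Kif26b, whose mean was lower with Nfia) and by 0.904% of the 32851 promoters of the table. Kif4, also called higher, had no such match. Over the whole 250 bases TTTGAA was in 5 of 11 mitotic kinesin promoters, 1 of 8 axonal and neuronal ones and 16.0% of all. The CCAAT box was in 7 of 11 mitotic ones, 5 of 8 ciliary ones, 2 of 3 of light chains, 2 of 8 axonal and neuronal ones and 33.8% of all, and TTGGC in 7 of 11, 3 of 8 and 41.5% of all. The full palindrome, TTGGC and GCCAA with 5 bases between, was in 0 of the 52 motor gene promoters and 0.0365% of all. The window was chosen after the matches were seen, and a match is a run of letters, not a measured binding site.

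The 9 kinesins of axonal and neuronal cargo transport did not move as a group. Of the 8 tested, 3 were lower (Kif5c, Kif5a and Kif21a), 1 was higher (Kif21b) and 4 did not pass. The called share of these 8 was 50.0%, beside 31.3% of all genes (15.1% lower and 16.1% higher). The median log2 difference was -0.14, and single genes ran from -0.64 to 0.35, so that Kif1b lay within the range of the mitotic kinesins and Kif21b just above it.

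Kif5c and Kif5a are the neuron-enriched heavy chains of kinesin-1, which carries mitochondria and vesicles toward the axon tip. Kif5c fell from 87.6, 82.3 and 87.8 FPKM in control to 52.0, 54.0 and 58.8 FPKM with Nfia (ratio of means 0.639, log2 difference -0.64, SE 0.06, adjusted p = 0.000626). Kif5a fell from 19.4, 19.3 and 19.1 FPKM to 12.3, 12.7 and 14.0 FPKM (ratio 0.675, log2 difference -0.54, SE 0.06, adjusted p = 0.00104). In both genes the groups were far apart compared with the spread within them, and both calls held with any 1 library left out and under every other alternative. The annotated span of Kif5a overlaps that of Dctn2, which fell from 120 ± 5.05 to 106 ± 1.34 FPKM. The sources do not say whether strand was used in counting.

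Kif1a, the motor of synaptic vesicle precursors, did not pass: it was 48.6, 55.7 and 52.4 FPKM in control and 48.1, 48.5 and 55.0 FPKM with Nfia. The groups overlapped and the log2 difference of -0.05 was below its own standard error of 0.07 (adjusted p = 0.649). Of the axonal kinesins named in the rule, 2 were thus called lower and 1 was not called. Kif21b, a motor that limits microtubule growth in neurons, rose from 32.0, 36.8 and 36.1 FPKM to 41.4, 43.4 and 49.9 FPKM (log2 difference 0.35, SE 0.08, adjusted p = 0.0202). Its relative Kif21a fell from 19.7, 19.7 and 20.1 FPKM to 17.7, 16.7 and 17.8 FPKM (log2 difference -0.18, SE 0.04, adjusted p = 0.0205). Leaving out control 1, control 3 or Nfia 2 ended both calls, with an adjusted p from 0.0524 to 0.0628 for Kif21b and from 0.055 to 0.0724 for Kif21a. Of those that did not pass, Kif1b, a motor of mitochondria and synaptic cargo, averaged 65.7 ± 2.87 FPKM (control) and 73.4 ± 6.04 FPKM (Nfia), Kif3c 33.5 ± 0.921 and 31.3 ± 1.38 FPKM, and the minus-end motor gene Kifc2 3.97 ± 0.335 and 3.31 ± 0.335 FPKM.

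**Figure D2:**
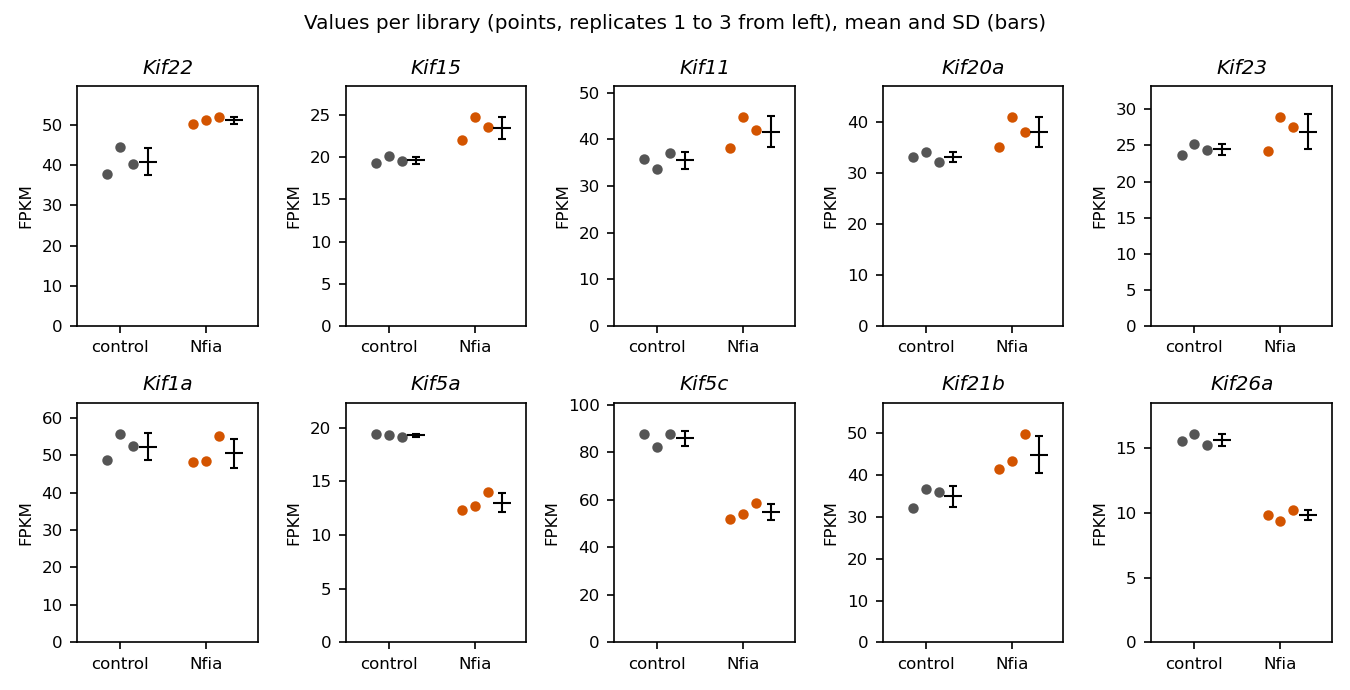
FPKM in each library for 10 kinesin genes, with the mean and SD (n = 3) beside the points; every axis starts at 0. Kif5a, Kif5c and Kif26a separate by far more than their spread, Kif22, Kif15, Kif11 and Kif20a by little, and Kif1a and Kif23 overlap.

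The third kinesin-1 heavy chain gene, Kif5b, which most cell types express, moved the other way from Kif5a and Kif5c. It was 71.8, 66.3 and 71.8 FPKM in control and 76.3, 80.4 and 77.9 FPKM with Nfia (log2 difference 0.16, SE 0.05, adjusted p = 0.0444). This narrow call rested on all 6 libraries (adjusted p = 0.0638 to 0.134 with 5) and was also lost with no filter, upper-quartile scaling, quantile normalization, no variance trend and the replicate block (0.0523 to 0.0963). As a share of the summed FPKM of the 3 genes, Kif5c was 49.0% ± 0.0809 in control and 37.6% ± 1.26 with Nfia, Kif5b 39.9% ± 0.392 and 53.5% ± 1.62, and Kif5a 11% ± 0.431 and 8.90% ± 0.356 (SD, n = 3 per group). By FPKM, the leading kinesin-1 heavy chain transcript was thus Kif5c in each control library and Kif5b in each Nfia library. The order within a library depends on the transcript lengths behind the FPKM, which are not known. The ratio of Kif5c to Kif5b was 1.22, 1.24 and 1.22 in control and 0.682, 0.672 and 0.755 with Nfia. The shares are given without a test. An exact permutation test of 3 against 3 libraries could not give a p below 0.1, and no model was fitted to the shares. The sum of the 3 genes was 168 to 179 FPKM in control and 141 to 151 FPKM with Nfia.

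**Figure D3:**
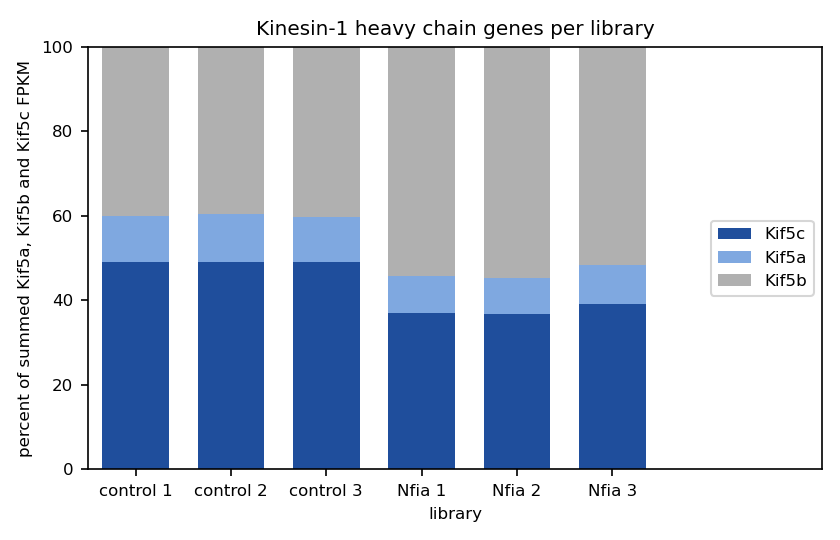
Percent of the summed FPKM of Kif5a, Kif5b and Kif5c held by each gene (stacked bars) in each of the 6 libraries. Kif5c holds 49.0% to 49.1% in the control libraries and 36.7% to 39.0% in the Nfia libraries, where Kif5b is the largest part.

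The kinesin light chains, which link kinesin-1 to its cargo, were all lower: 4 of 4 were called, with log2 differences from -0.67 to -0.19. Of all genes tested, 15.1% were called lower. The light chain count was 4 without control 2 and 3 without any other library. Klc1, the main light chain gene, fell from 158, 156 and 154 FPKM to 137, 134 and 138 FPKM (SE 0.04, adjusted p = 0.0109). The gap between its groups was several times the spread within either. Klc4 fell from 16.3, 15.9 and 17.1 FPKM to 13.4, 13.6 and 13.6 FPKM (log2 difference -0.26, adjusted p = 0.00615). Klc3 fell from 2.11, 2.43 and 3.03 FPKM to 1.13, 1.39 and 1.10 FPKM (ratio 0.478, adjusted p = 0.00898), the largest log2 decrease among the motor genes and one at a low level. Klc2 fell from 24.5, 21.9 and 25.0 FPKM to 18.3, 20.4 and 20.8 FPKM (log2 difference -0.25, adjusted p = 0.0355), a call that leaving out any library but control 2 ended (adjusted p = 0.0547 to 0.114) and that was also lost with no filter (0.0555) and with the replicate block (0.0505). Within the summed light chain FPKM, Klc1 was 78.5% ± 1.09 in control and 79.8% ± 0.797 with Nfia, so its share overlapped while Klc3 went from 1.27% ± 0.237 to 0.705% ± 0.0987. The spans of Klc1, Klc3 and Klc4 overlap those of Xrcc3, Ercc2 and Mrpl2.

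Markers of young neurons fell beside Kif5a, Kif5c and the light chain genes, while the kinesin-1 gene Kif5b was called higher. Of 14 listed, 11 were lower and 1 higher, beside 15.1% and 16.1% of all genes. The higher one was Nefl, with means of 6.82 FPKM (control) and 8.70 FPKM (Nfia). The median log2 difference of the 14 was -0.55, and their sum was 1811 to 1888 FPKM in control and 1174 to 1184 FPKM with Nfia. The beta-tubulin gene of neurons, Tubb3, fell from 609 ± 38.8 to 306 ± 14.7 FPKM, Elavl4 by 0.77, Elavl3 by 0.55 and Dcx by 0.71 on the log2 scale. The part of these markers in the fall of Kif5a, Kif5c and the light chains was not tested. Kif1a, Kif1b and Kif21b were not called lower.

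Among 17 tested genes of kinesin cargo adaptors, 5 were lower and 2 higher, beside 15.1% and 16.1% of all genes, with a median log2 difference of 0.00. Fez1, a kinesin-1 adaptor of growing axons, fell from 138 to 162 FPKM in control to 95.3 to 102 FPKM with Nfia (log2 difference -0.54). Sybu, which links kinesin-1 to syntaxin cargo, fell by 0.49 and the scaffold gene Mapk8ip2 by 0.34 on the log2 scale. Mapk8ip1, a scaffold of the same family, rose from 75.5 ± 2.63 to 90.0 ± 1.14 FPKM (log2 difference 0.25). The calls of these 4 genes held with any 1 library left out.

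The kinesins of the cilium, the signalling antenna of the precursor, went both ways, and 4 of the 8 were too low to be tested. Kif7, a regulator of hedgehog signalling at the cilium tip, rose from 4.01, 4.61 and 4.47 FPKM to 5.98, 5.67 and 6.56 FPKM (log2 difference 0.40, SE 0.08, adjusted p = 0.00915). Every Nfia library was above every control library, and the call held with any 1 left out. Its span overlaps that of Ticrr. Kif3a and Kif3b, the paired heavy chains of kinesin-2 that drive transport into the cilium, fell by a similar amount. Kif3a went from 29.6, 28.5 and 29.7 FPKM to 24.2, 25.9 and 26.8 FPKM (log2 difference -0.19, SE 0.05, adjusted p = 0.0278) and Kif3b from 18.2, 18.8 and 19.4 FPKM to 15.8, 16.6 and 17.1 FPKM (log2 difference -0.18, SE 0.05, adjusted p = 0.0283). Kifap3, the third subunit of that motor, fell from 37.7 ± 1.58 to 31.7 ± 0.925 FPKM, a log2 difference of -0.24 (adjusted p = 0.00954). Leaving out control 3, Nfia 1 or Nfia 2 ended the calls of both Kif3a and Kif3b, as did leaving out control 1 for Kif3a and control 2 for Kif3b (adjusted p from 0.0634 to 0.0942). Kif24, a centriolar kinesin, was 3.50 ± 0.222 and 4.13 ± 0.0611 FPKM and did not pass (adjusted p = 0.0761).

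Dynein 2 brings cargo back out of the cilium, and its chains moved in opposite directions. Dync2li1, the light intermediate chain, fell from 20.7, 17.6 and 17.3 FPKM to 13.0, 14.0 and 10.6 FPKM (ratio 0.677, log2 difference -0.53, SE 0.11, adjusted p = 0.0121), with no overlap and a call that held with any 1 library left out. Dync2h1, the heavy chain, rose from 3.61, 3.57 and 3.83 FPKM to 4.21, 4.59 and 4.70 FPKM (log2 difference 0.24, SE 0.07, adjusted p = 0.0383). Leaving out any library but Nfia 1 ended that call (adjusted p = 0.0668 to 0.111), as did no filter, upper-quartile scaling and the replicate block (0.0536 to 0.0799). The span of the gene overlaps that of Dcun1d5. Of 18 listed partners of ciliary transport, 6 were lower and 0 higher. That called share of 33.3% stands beside 15.1% of all genes called lower and 31.3% called in either direction. The median log2 difference of these partners was -0.11. Wdr34, an intermediate chain of dynein 2, fell to 0.708 of its control mean (log2 difference -0.46) and Wdr19, of the retrograde transport complex, by 0.42 on the log2 scale. The count of lower partners was 3 without control 1, control 3, Nfia 1 or Nfia 3. Multiciliated cell markers were low. Of the 4 that could be tested, 2 were lower (Gmnc and Ccdc40), beside 15.1% of all genes. The 10 genes with values summed to 17.4 to 19.6 FPKM in control and 8.83 to 9.42 FPKM with Nfia, of which Gmnc gave means of 6.82 and 1.71 FPKM. The 2 axonemal dynein genes that could be tested, Dnal4 and Dnal1, were called lower, beside 15.1% of all genes. They fell by 0.32 and 0.31 on the log2 scale.

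Cytoplasmic dynein 1 is the main motor toward the cell body. Of its 5 heavy, intermediate and light intermediate chain genes, 3 were lower and 0 higher, beside 15.1% and 16.1% of all genes. Dync1i1, the intermediate chain of neurons, fell from 2.60, 2.61 and 3.01 FPKM to 1.23, 1.75 and 1.72 FPKM (ratio 0.572, log2 difference -0.55, SE 0.11, adjusted p = 0.013), and this call held with any 1 library left out. The widely expressed intermediate chain gene Dync1i2, at a much higher level, fell from 177, 160.0 and 159.9 FPKM to 147, 144 and 141 FPKM (log2 difference -0.20, adjusted p = 0.0312). Dync1li1 fell from 63.6, 59.8 and 62.3 FPKM to 53.2, 51.2 and 55.9 FPKM (log2 difference -0.21, adjusted p = 0.018), whereas the other light intermediate chain gene, Dync1li2, had overlapping groups at 57.8 ± 1.56 and 56.3 ± 1.55 FPKM (adjusted p = 0.522). Leaving out control 1, control 3 or Nfia 2 ended the calls of Dync1i2 and Dync1li1, and leaving out Nfia 1 or Nfia 3 that of Dync1i2 alone (adjusted p from 0.0536 to 0.0906). The heavy chain gene Dync1h1 was 32.3, 44.1 and 37.4 FPKM in control and 46.8, 42.8 and 53.0 FPKM with Nfia. Its control libraries spread widely and the groups overlapped (log2 difference 0.32, SE 0.12, adjusted p = 0.0902). It was called higher without control 2.

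Over all 16 dynein genes tested, 6 were lower and 2 higher, beside 15.1% and 16.1% of all genes. The dynein light chains are small subunits shared with other complexes, and 8 of the 9 had a lower mean with Nfia, of which 2 were called. Dynll2 fell from 121, 125 and 119 FPKM to 98.0, 94.0 and 95.3 FPKM (log2 difference -0.34, SE 0.04, adjusted p = 0.00178), well outside the spread of either group. Its close relative Dynll1 was 106 ± 9.01 and 100.2 ± 8.16 FPKM with overlapping groups (adjusted p = 0.472). Dynlt1b fell from 154, 148 and 140.5 FPKM to 129, 121 and 115 FPKM (log2 difference -0.28, adjusted p = 0.0137, and 0.054 without Nfia 2). It belongs to a cluster of near-identical copies on chromosome 17 with Dynlt1a, Dynlt1c and Dynlt1f, so reads could be split between them. The copies had log2 differences of -0.19, -0.29 and -0.08 that did not pass. In alternatives, Dynlt1c was called lower with quantile normalization, the replicate block and without control 3 (adjusted p = 0.0145 to 0.0454). Dynlt1a was called lower with the replicate block (adjusted p = 0.0256). Dynlt3 rose from 16.2, 15.3 and 18 FPKM to 19.8, 20.7 and 19.4 FPKM (log2 difference 0.26, adjusted p = 0.0215), a call that leaving out any library but control 3 ended (adjusted p = 0.0504 to 0.0816). Dynlrb1, the motor gene with the highest level, was 372 ± 12.4 and 359.7 ± 33.0 FPKM and did not pass (adjusted p = 0.631), and Dynlrb2 stayed below 4 FPKM with 1 control library, at 3.13 FPKM, above all others. In 7 of the 9 light chain genes Nfia 3 was the lowest Nfia library, while in all 8 tested axonal and neuronal kinesins it was the highest. Over all genes tested, Nfia 3 was the lowest in 34.8% and the highest in 38.7%.

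Dynactin and the dynein regulators held 6 lower and 0 higher of 18 tested. That called share of 33.3% stands beside 15.1% of all genes called lower and 31.3% called in either direction. The median log2 difference of the 18 was -0.02. Hook1, an adaptor between dynein and endosomes, fell from 8.52 ± 0.954 to 5.54 ± 0.153 FPKM (log2 difference -0.54) and Actr10, of the dynactin pointed end, from 38.4 ± 0.610 to 31.4 ± 1.26 FPKM (log2 difference -0.29). Pafah1b1, which encodes the dynein regulator Lis1, fell by 0.15 and Dctn2 by 0.18 on the log2 scale. The count was 2 without control 1 or Nfia 2 and 3 without any other library.

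**Figure D4:**
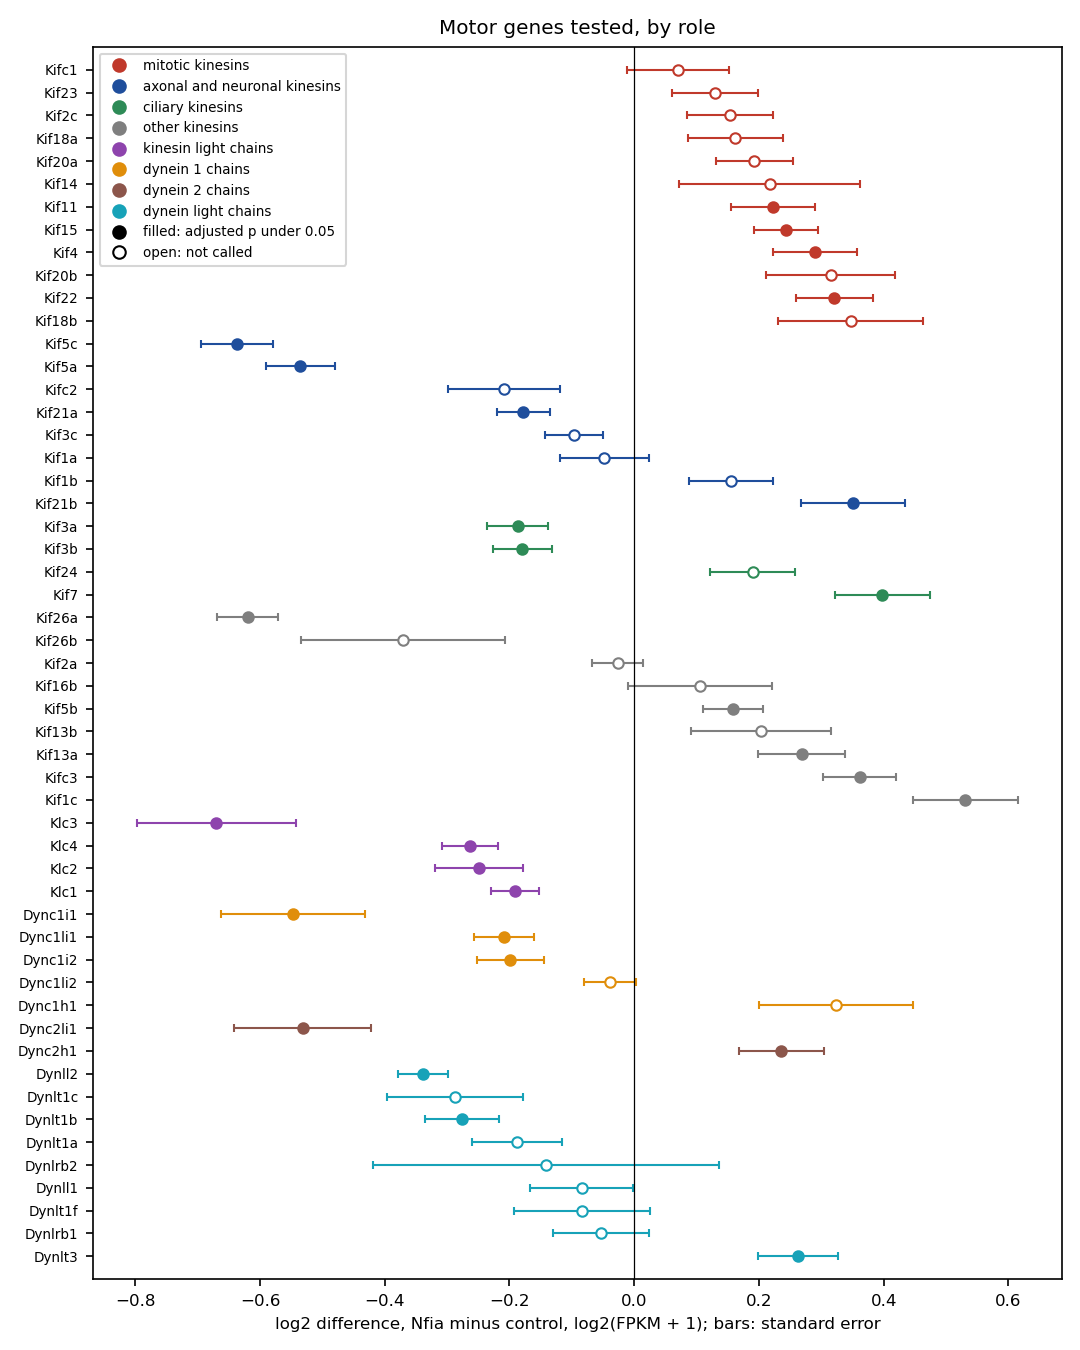
Log2 difference (Nfia minus control, log2(FPKM + 1)) with its standard error for each of the 53 motor genes tested, grouped by role; filled points passed an adjusted p of 0.05. The 12 mitotic kinesins lie between 0.07 and 0.35, the 4 light chains between -0.67 and -0.19, and the axonal and neuronal kinesins on both sides of 0.

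Of the kinesins outside these roles, 4 were higher and 1 lower among 9 tested, beside 16.1% and 15.1% of all genes. Kif26a, an atypical kinesin without motor activity that binds microtubules, fell from 15.5, 16.1 and 15.2 FPKM to 9.86, 9.41 and 10.2 FPKM (ratio 0.629, log2 difference -0.62, SE 0.05, adjusted p = 0.000453), the smallest adjusted p among the motor genes. The gap between the groups was several times their own spread. Its relative Kif26b was near the level needed for testing, at 1.30 ± 0.418 and 0.766 ± 0.130 FPKM, and did not pass (adjusted p = 0.129). Kif1c, a fast transporter of Golgi and adhesion cargo, rose from 9.23, 10.9 and 10.7 FPKM to 14.1, 15.1 and 16.7 FPKM (ratio 1.49, log2 difference 0.53, SE 0.08, adjusted p = 0.00482), the largest log2 increase among the motor genes. Kif1a and Kif1b, of the same kinesin-3 family, did not pass, as given above. Kifc3, a minus-end motor of cell junctions, rose from 9.83, 9.18 and 9.26 FPKM to 12.2, 11.7 and 13.3 FPKM (log2 difference 0.36, SE 0.06, adjusted p = 0.00526). All 3 calls (Kif26a, Kif1c and Kifc3) held in every alternative tried. Kif13a, a kinesin of endosomes, rose from 7.98, 8.68 and 8.05 FPKM to 9.49, 9.81 and 11.1 FPKM (log2 difference 0.27, adjusted p = 0.0271). Leaving out control 1, control 3, Nfia 2 or Nfia 3 ended the Kif13a call (adjusted p from 0.0635 to 0.089), as did no filter (0.0512). Kif2a, a depolymerase of spindle poles and growth cones, was 45.3 ± 0.899 and 44.5 ± 1.39 FPKM (adjusted p = 0.654). Kif13b and Kif16b had log2 differences of 0.20 and 0.11 that did not pass.

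The 7 motor genes below the level for testing were Kif17, Kif19a, Kif27, Kif6, Kif9, Kif12 and Kif2b. Those nearest to it were Kif27 and Kif19a, with means of 0.406 and 0.395 FPKM over the 6 libraries, and the nearest above it were Kif26b and Dynlrb2, with 1.04 and 1.65 FPKM. Kif27, Kif19a, Kif6 and Kif9 belong to motile or signalling cilia and Kif17 to neurons. Kif12 was listed at 0 in all 6 libraries, and Kif2b at 0 in all but Nfia 2.

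The genes whose levels followed Kif20a and Kif5c most closely over the 6 libraries were sought among all genes tested that are not motors, by Pearson's correlation of log2(FPKM + 1). For Kif20a they were Elk4, Melk and Fkbp15 (r = 0.995, 0.992 and 0.982). Melk, a kinase of dividing cells, had means of 19.6 FPKM (control) and 22.1 FPKM (Nfia). For Kif5c they were Cxxc4, Plcl2 and Cask (r = 0.999 each), with log2 differences of -0.63, -0.32 and -0.38. A correlation above 0.9 was reached by 248 genes for Kif20a and by 1466 genes for Kif5c. The 6 points fall into the same 2 groups for every gene, so these values are a description of likeness and carry no test.

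**Figure D5:**
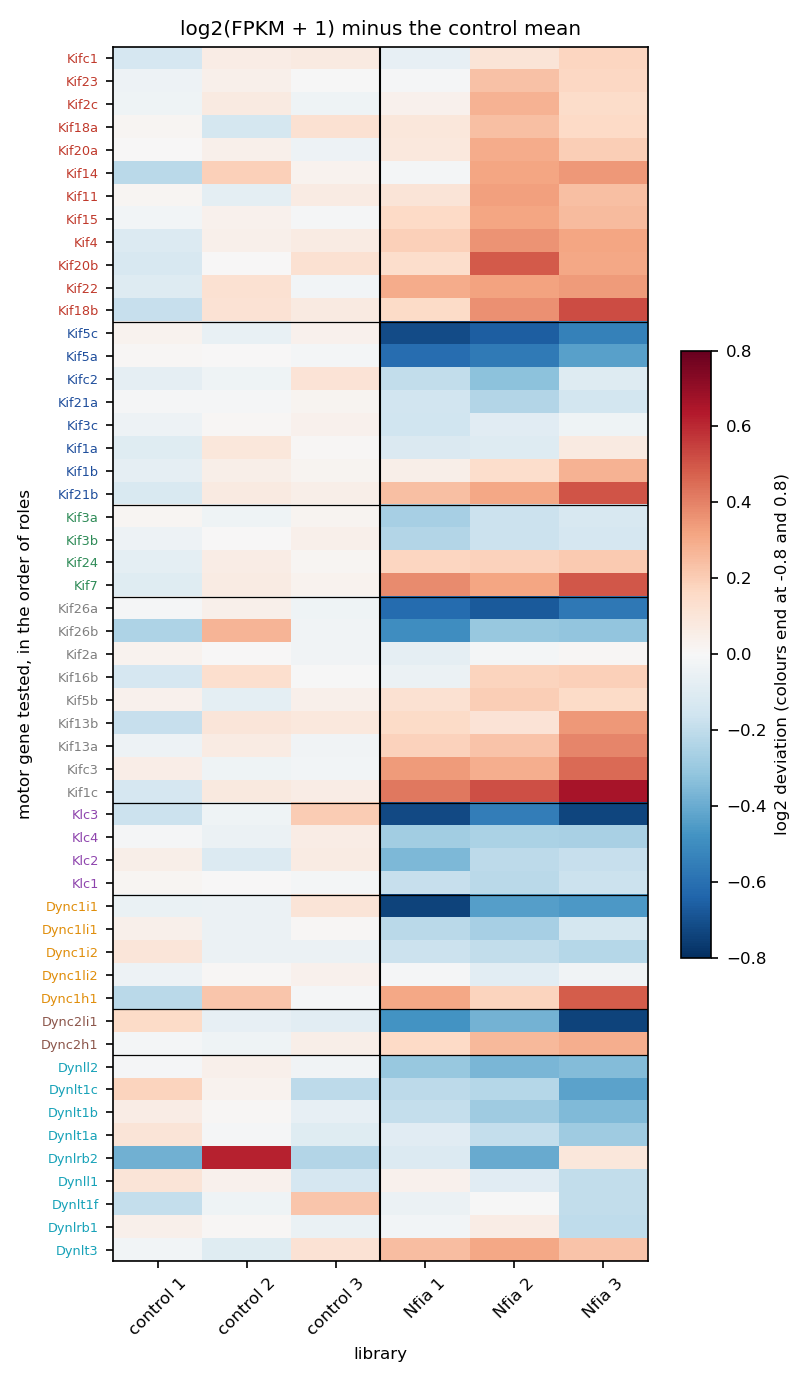
Deviation of log2(FPKM + 1) from the control mean for the 53 motor genes tested (rows, names coloured by role, lines between roles) in each of the 6 libraries (columns). The 4 light chain genes are blue in each Nfia library, the mitotic kinesins are palest in Nfia 1, and Kif5c, Kif5a and Kif26a are the deepest blue among the kinesins.

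Called with any 1 library left out and under all other alternatives were 14 of the 28 motor genes: Kif15, Kif22, Kif7, Kif1c and Kifc3, which rose, and Kif5a, Kif5c, Kif26a, Klc1, Klc3, Klc4, Dync1i1, Dync2li1 and Dynll2, which fell. In GRCm38, Kif5c lies on chromosome 2 from 49619286 to 49774778, Kif5a on chromosome 10 from 127225695 to 127266348, Kif26a on chromosome 12 from 112143974 to 112181747, Kif22 on chromosome 7 from 127027729 to 127042467 and Kif1c on chromosome 11 from 70700396 to 70731970. These are gene spans, and values are per gene, so no exon or isoform is resolved.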

How the data were processed

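RNA-seq of 3 control and 3 Nfia-transduced libraries was used, and the Flag and IgG ChIP samples were not analysed here. The deposited values are FPKM per gene symbol, a unit read from the values and the tools named, since the files have no header. Per the submitters' processing notes, the tools included Cufflinks, Cuffdiff, TopHat and Bowtie with build mm10, in no stated role or order. No source used here states the annotation, the filters or whether strand was used. The 12537 genes averaging 1 FPKM or more were compared on log2(FPKM + 1) with limma 3.58.1 in R 4.3.3 (lmFit, eBayes with a variance trend, two-sided) with Benjamini-Hochberg adjustment over these genes. FPKM are shares of a library, and the pseudocount makes log2 differences of low genes smaller than their ratios. Whole reads could not be recovered because gene lengths are not known. Fits were tested on simulated data.

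The members and lists were chosen with earlier results of these data known, so list counts are descriptions and no list was tested. Named are the genes given in the rule, each called motor gene, up to 4 called genes of each partner list by adjusted p, and members near the filter. The likeness search, roles, partner lists and markers were set out with the design. Positions and promoters are from RefSeq tables of GRCm38.p6, matched by symbol. Alternatives were a pseudocount of 0.1, no filter, a mean of at least 5 FPKM, scaling by upper quartile, by median of ratios or by quantiles, no or a robust variance trend, library weights, a replicate block and leaving out each library.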

Additional observations from a re-analysis of the deposited data

How the results depend on the processing

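Each of the 53 motor genes was refitted under up to 16 alternatives, and no called motor gene changed direction. Of 838 refits, 738 kept direction and side of the threshold, 72 lost a call, 24 gained one and 4 changed the sign of a gene that was not called: Dynlrb1 (log2 difference 0.016 with library weights, and -0.11 to 0.020 without 1 library, above 0 without Nfia 3), Dynlrb2 (-0.33 to 0.17 without 1 library, above 0 without control 2) and Dynlt1f (-0.18 to 0.027, above 0 without control 3). Without 1 library in turn, all genes called ranged from 1290 to 1625 higher and 1251 to 1572 lower, motor genes from 5 to 14 higher and 9 to 15 lower, mitotic kinesins from 2 to 8 higher, axonal and neuronal kinesins from 0 to 1 higher, and dynein genes from 0 to 1 higher and 3 to 6 lower. With all libraries, the 4 higher mitotic kinesins became 7 with a robust trend and 8 with library weights, and the 2 higher dynein genes became 1 with no filter, with a filter at 5 FPKM, with upper-quartile scaling and with the replicate block. The cause was not tested. Over all genes tested, same-numbered libraries did not deviate from their group means together (r = 0.026, -0.006 and 0.046 for numbers 1 to 3). The numbers were therefore not taken as pairs. In both groups, however, library 1 had the lowest sum of the mitotic kinesins (261 FPKM in control 1 and 295 FPKM in Nfia 1). Pericyte and fibroblast markers were also lowest in both libraries numbered 1 (9.48 and 7.59 FPKM in sum). The block gave 2130 higher and 1916 lower genes over all, 12 higher and 17 lower motor genes, 6 higher mitotic kinesins, 1 higher and 3 lower axonal and neuronal kinesins and 1 higher and 8 lower dynein genes. With 3 libraries a group and no counts, the differences of Kif11 and Kif5b did not pass in most refits.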
